A study of Danio rerio with 2 samples.

Results

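The genes of the proteasome and of ubiquitin activation and conjugation were described in the choroid plexus of the adult zebrafish forebrain, a folded epithelium that secretes cerebrospinal fluid. Members were the gene entries whose name in the authors' table of the whole series begins with psma to psmg and a digit, with ube2, or with uba and a digit, or is ubb or ubc. Entries named psmb8, psmb9, psmb10, psmb12 or psmb13, most of them subunits of the immune forms of the proteasome, were left out. This gave 102 of the 21019 entries of that table, with 99 symbols, because psmd2, ubb and ube2c each have more than 1 entry. The table starts at a mean of 0.01 TPM, so a gene at 0 in both libraries could not be a member. Of genes that carry such a name in a reference table of symbols only, 2 were listed at 0 in both libraries and 2 had values. Those with values, PSMA2 and UBE2W by that table, are given separately.

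The study sequenced total RNA from 2 pools of dissected tissue, which are replicates 1 and 2 here and batches 1 and 2 in the sample titles. Each pool held 12 to 19 choroid plexuses from untreated fish aged 6 to 8 months and over 3 cm long, with the pineal gland taken off. The genotype of both is given as AB and nacre (mitfa-/-), the second being a pigment mutant line without melanophores, and the labels do not say which fish went into which pool. RNA was purified with glycogen or on spin columns, and which library had which is not stated either. With 1 group nothing could be tested between conditions, and replicate and batch cannot be told apart.

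The proteasome is the protease that degrades proteins tagged with ubiquitin. Its barrel-shaped 20S core has outer rings of alpha subunits, which gate the entry, and inner rings of beta subunits, some of which cut peptide bonds. The 19S cap binds the core with a ring of ATPases, which unfold the substrate, and carries non-ATPase subunits of a base and a lid, which bind and remove ubiquitin. Ubiquitin reaches a protein through an activating enzyme (E1), a conjugating enzyme (E2) and a ligase (E3), and related enzymes attach relatives of ubiquitin such as SUMO and NEDD8. In a secretory epithelium these enzymes also clear proteins that fail to fold in the endoplasmic reticulum.

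Levels are in TPM, which divides the reads of a gene by its effective transcript length and scales each library to the same sum, so that genes can be set beside each other. Of the 102 members, 97 reached 1 TPM in both replicates, called detected here, where 66.1% of all genes of the table did. Both replicates were at 10 TPM or above for 83 members, where 31.9% of all genes passed. At 100 TPM this held for 8 members, where 3.78% of all genes passed. The median of the members was 29.5 TPM and that of all genes of the table was 4.88 TPM (means of both replicates). The members that do not encode ubiquitin took 0.387% and 0.391% of all TPM in replicates 1 and 2. All 36 subunit entries of core and cap were at 10 TPM or above in both replicates.

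The 20S core was the most abundant part of the particle by median TPM, an order that depended on the correction for length, as given below. Copies of a subunit gene that differ only by a final a or b, or that share a symbol, were summed to a subunit position, which gave 13 positions of the core. Of the catalytic subunits, psmb7, the trypsin-like one, was at 89.2 and 94.7 TPM in replicates 1 and 2, psmb6, the caspase-like one, was at 72.3 and 78.7 TPM, and psmb5, the chymotrypsin-like one, was at 47.6 and 65.7 TPM. In TPM, the order of these 3 genes was the same in both replicates, and the ranges of psmb6 and psmb5 over the replicates did not overlap. In counts scaled only to the library total (CPM, used again below), psmb6 was above psmb7. Their levels on that scale were 55.0 and 64.9 CPM for psmb6 and 52.2 and 61.1 CPM for psmb7. In TPM, the structural beta subunits psmb2, psmb1 and psmb4 stood above the catalytic ones. Their levels were 127.8 and 139.1 TPM for psmb2, 122 and 140 TPM for psmb1, and 115 and 119 TPM for psmb4. In CPM, psmb1 and psmb4 stayed above psmb6 and psmb7, while psmb2, at 51.0 and 59.2 CPM, was below both. The other structural beta subunit, psmb3, was lower, at 64.7 and 73.6 TPM.

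The alpha positions covered a wider range than the beta positions. At the top, psma4 was at 119.5 and 125.9 TPM and psma3 at 97.03 and 101.1 TPM. In the middle, the summed psma6a and psma6b were at 77.4 and 78.1 TPM and psma5 at 46.9 and 58.7 TPM. At the bottom, psma1 was at 31.1 and 34.8 TPM and psma2 at 27.9 and 26.8 TPM. The standard deviation of log2 TPM over the 6 alpha positions was 0.87 in each replicate, and over the 7 beta positions it was 0.53 and 0.45.

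Gene naming affects the alpha ring. No entry of the table carried the name psma7, and the RefSeq table of assembly GRCz12tu gives psma7 as a synonym of zebrafish psma8, which in mammals is the germ cell form of this subunit. The entry psma8 was at 69.2 and 68.7 TPM, near the middle of the core positions. An entry without a name in the authors' table is PSMA2 in the reference table (ENSDARG00000035679), and it was at 46.1 and 36.5 TPM. Added to psma2, it brought this position to 74.0 and 63.3 TPM, and psma1 was then the lowest core position. The gene psma6l, named for its likeness to psma6, was at 0.76 and 1.15 TPM, with 8 and 15 expected counts.

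The ATPase ring showed the narrowest range of the 3 parts. The 6 positions lay between 41.8 and 83.8 TPM in replicate 1 and between 44.1 and 80.5 TPM in replicate 2, or 2.00-fold and 1.82-fold from lowest to highest. The highest was psmc5, at 83.8 and 80.5 TPM, followed by the summed psmc1a and psmc1b at 75.6 and 71.5 TPM. Then came psmc2 at 71.5 and 61.7 TPM and psmc3 at 59.0 and 56.8 TPM. The lowest were psmc6 at 41.8 and 47.2 TPM and psmc4 at 44.6 and 44.1 TPM, whose ranges overlapped. Every other pair of neighbours in this order, 4 of 5, had ranges that did not overlap. The ranges of psmc1 and psmc2 all but touched, with psmc1 at 71.52 TPM in replicate 2 and psmc2 at 71.46 TPM in replicate 1.

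The non-ATPase cap was led by psmd3, a lid subunit, at 81.7 and 81.6 TPM. The base position psmd4, which is a ubiquitin receptor and sums psmd4a and psmd4b, was at 78.2 and 64.7 TPM. The lid subunit psmd6 was at 74.6 and 67.3 TPM, a range that overlapped that of psmd4. The large scaffold subunits of the base were close to each other, with psmd2 at 51.4 and 47.7 TPM over 2 entries and psmd1 at 50.2 and 48.3 TPM. The deubiquitinase of the lid, psmd14, was at 39.2 and 42.9 TPM and its partner psmd7 at 41.9 and 38.9 TPM, also overlapping. These 2 enter the lid as a dimer.

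The remaining lid positions all lay below psmd6. The subunit psmd13 was at 49.9 and 44.5 TPM and psmd8 at 42.4 and 44.2 TPM. The lowest positions of the cap were psmd11, at 28.8 and 37.3 TPM over psmd11a and psmd11b, and psmd12, at 28.3 and 29.9 TPM. Of the 10 neighbour pairs in the order of the cap, 6 overlapped and 4 did not, and of the 12 in the core 6 overlapped and 6 did not.

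**Figure D1:**
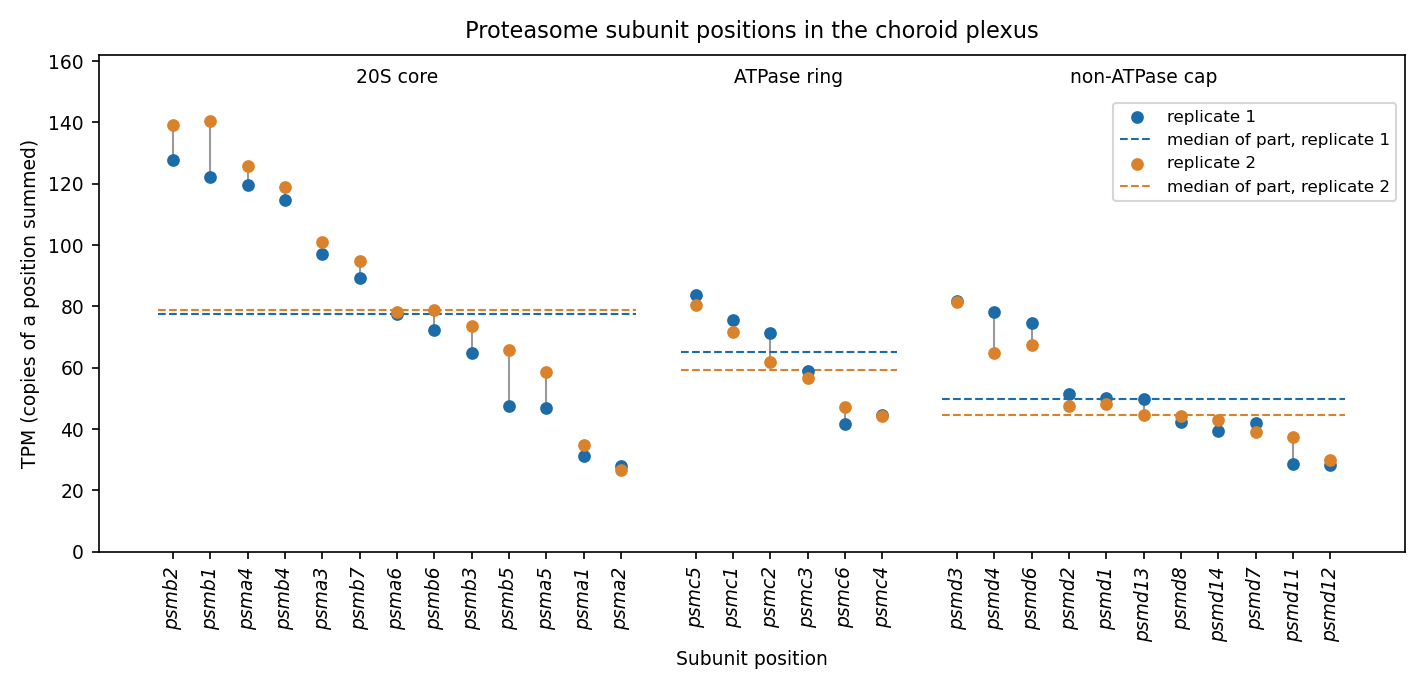
TPM of each subunit position of the proteasome (x axis, ordered by mean within each part) in replicate 1 and replicate 2 (points, joined by a line), with the median of the part in each replicate as a dashed line. Core medians are at 77.4 and 78.7 TPM, above those of the ATPase ring (65.2 and 59.3 TPM) and of the non-ATPase cap (49.9 and 44.5 TPM).

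Subunits of the assembled particle are present in fixed numbers, and the RNA levels were within a few-fold of each other. In both replicates all 6 ATPase positions and all 11 non-ATPase positions were within 2-fold of the median of their part, and 11 of 13 core positions were, the exceptions being psma1 and psma2. From lowest to highest, the core spanned 4.57-fold and 5.24-fold in replicates 1 and 2 and the non-ATPase cap 2.89-fold and 2.73-fold. The standard deviation of log2 TPM over positions was 0.74 and 0.73 for the core, 0.41 and 0.34 for the ATPase ring and 0.53 and 0.42 for the non-ATPase cap. Between the replicates the positions of the core moved less than this, since their log2 ratios of replicate 2 to replicate 1 had a standard deviation of 0.14.

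The median ATPase position was below the median core position by a log2 of -0.33 ± 0.11 (SD, n = 2), or 1.26-fold. The median non-ATPase position was below it by a log2 of -0.73 ± 0.13, or 1.66-fold. Within the core, the median beta position was above the median alpha position by a log2 of 0.50 ± 0.036, or 1.41-fold. With psma8 taken as the alpha 4 subunit and PSMA2 added, a setting chosen after seeing the data, these differences were -0.31, -0.71 and 0.37, and the standard deviation of log2 TPM over the core was 0.60 and 0.56.

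Positions with longer transcripts tended to have lower TPM in the core and the ATPase ring. The effective length of a position ranged from 516 to 2976 bases, and over the 30 positions the Spearman correlation of TPM with effective length was -0.68, a description across genes of the same libraries. Within the parts it was -0.73 over the core, -0.66 over the ATPase ring, which has only 6 positions, and -0.10 over the non-ATPase cap. TPM is itself divided by effective length, so the 2 quantities are not independent, and the part of this division was not tested. The core genes are short, except that the entry of psma1 had an effective length of 2366 bases and that of psma2 1486 bases. Without a correction for length, in counts scaled only to the total of the library (CPM), psma1 was at 56.3 and 68.6 CPM, near the core medians of 52.2 and 61.1 CPM. On that scale the log2 difference of the median ATPase position from the median core position was 0.12 ± 0.17 and that of the median non-ATPase position was -0.04 ± 0.18 (SD, n = 2), both smaller than the spread between replicates. The order of core, ATPase ring and cap therefore holds for TPM but not for CPM.

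Cap subunits whose symbols do not begin with psm were set beside them from a list of other pathway genes. The ubiquitin receptor of the base adrm1 was at 39.4 ± 1.15 TPM (SD, n = 2), within the range of the cap positions. The small lid subunit sem1 was at 18.7 ± 2.51 TPM, below the lowest cap position. The deubiquitinases that bind the cap, usp14 and uchl5, were at 31.2 ± 1.51 and 25.7 ± 3.49 TPM. All 15 matched genes of this list were detected, where 66.1% of all genes of the table were. At 10 or above in both replicates were 14, where 31.9% of all genes were. The highest were pomp, the chaperone that completes the core, at 74.6 ± 1.38 TPM, rad23b, a carrier of ubiquitinated proteins, at 58.5 ± 0.46 TPM, and zfand5b, at 56.9 ± 12.4 TPM.

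Other complexes give a scale for these spreads, with no test between them. Over 8 genes of the chaperonin CCT the standard deviation of log2 TPM was 0.57 and 0.63 in replicates 1 and 2, and over 7 genes of the COP9 signalosome, a relative of the lid, it was 0.46 and 0.55. Over 79 cytosolic ribosomal protein genes, taken singly and with low copies of duplicated genes included, it was 1.254 and 1.310, and over the 13897 genes detected in both replicates it was 1.93 and 2.02. The core stood above CCT on this measure as its positions were counted here, but with PSMA2 added it was at 0.62 and 0.58, below CCT in replicate 2. The median of the non-ATPase cap was 47.2 TPM, against 24.99 TPM for the COP9 signalosome, and that of the core was 78.1 TPM, against 214 TPM for CCT (means of both replicates).

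**Figure D2:**
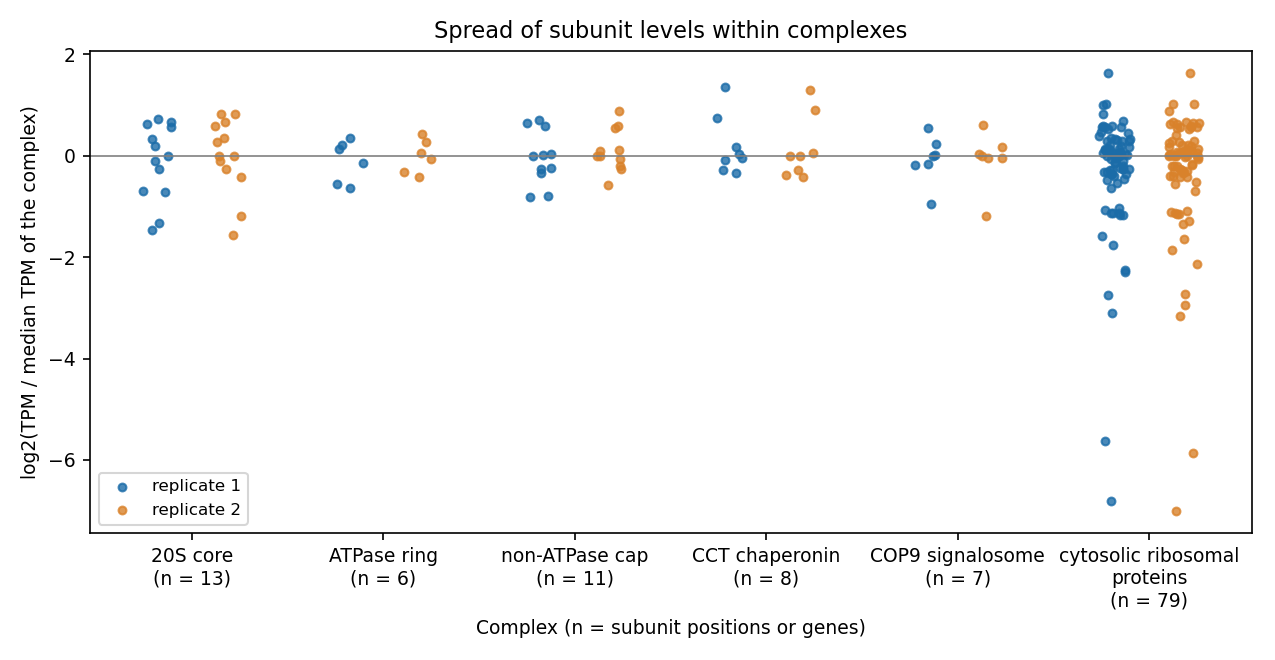
Level of each subunit position or gene relative to the median of its complex, as log2, in replicate 1 and replicate 2 (points), for 3 parts of the proteasome and 3 other complexes. The standard deviation of log2 TPM is 0.74 and 0.73 for the core as plotted, 0.57 and 0.63 for CCT and 0.46 and 0.55 for the COP9 signalosome, and single ribosomal protein genes reach far below their median.

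Assembly chaperones with a psm symbol, which are not part of the finished particle, had a lower median level than its subunits, and the ranges overlapped. The core chaperones psmg2 and psmg1, which work as a pair in building the alpha ring, were at 29.1 and 27.8 TPM and at 26.1 and 27.5 TPM, and their ranges over the replicates overlapped. The third core chaperone, psmg3, was at 21.7 and 26.7 TPM. Chaperones of the ATPase ring were lower, with psmd5 at 17.6 and 14.7 TPM, psmd9 at 12.1 and 17.3 TPM and psmd10 at 8.52 and 9.47 TPM. The median of these 6 genes was 20.2 TPM, against 46.8 TPM for the 36 subunit entries.

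Alternative caps of the core and its inhibitor were also low in TPM. The inhibitor psmf1 was at 25.8 and 23.1 TPM and psme3, which encodes the activator of the nucleus, at 22.5 and 26.3 TPM. The genes psme1 and psme2, whose products join into the interferon-inducible activator in mammals, were at 9.99 and 14.2 TPM and at 4.81 and 4.59 TPM. The level of psme3 was 3.04-fold and 2.80-fold the mean of these 2 genes. The large activator psme4 was represented by psme4b, at 19.3 and 14.3 TPM, and psme4a, at 10.3 and 5.62 TPM. In TPM, all 6 entries were below the lowest core position in each replicate. In CPM, psme4b was at 101.9 and 83.3 and psme4a at 52.3 and 31.5, where the core medians were 52.2 and 61.1. The low level of psme4b therefore holds for TPM but not for CPM.

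Of the entries that the name rule took in without their being proteasome genes, psme3ip1, whose product binds the nuclear activator, was at 23.3 and 21.3 TPM. The recombination factor psmc3ip was at 4.65 and 0.65 TPM, from 29 and 5 expected counts.

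Of the genes that encode ubiquitin, the polyubiquitin genes are described here. For comparison rps27a, which encodes ubiquitin joined to a ribosomal protein and is no member by name, was at 3201 and 4542 TPM. The polyubiquitin gene ubc, which encodes repeats of ubiquitin in a row, was at 828 and 505 TPM. The second polyubiquitin symbol, ubb, has 2 entries, at 78.9 and 20.5 TPM (ENSDARG00000002369) and at 42.8 and 7.68 TPM (ENSDARG00000093313). Together the polyubiquitin entries were at 949.8 TPM in replicate 1 and 532.8 TPM in replicate 2, and ubc held most of either sum.

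The division of reads between the ubb entries is uncertain. Their expected counts in replicate 1, 977.56 and 481.44, are not whole numbers and sum to 1459, so reads were shared out between them, and they were the only members with counts that were not whole. In replicate 2 the counts were 317 and 88. Summed, ubb was at 121.7 TPM in replicate 1 and 28.2 TPM in replicate 2. Levels of ubiquitin genes are transcripts and not ubiquitin units, since a polyubiquitin transcript encodes several.

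Among E1 genes, uba1, the main activating enzyme of ubiquitin, was at 142.6 and 112.0 TPM. The other ubiquitin E1, uba6, was at 6.40 and 4.43 TPM, so uba1 exceeded it 22.3-fold and 25.3-fold. The activating enzymes of NEDD8 and SUMO lay between them. The NEDD8 enzyme uba3 was at 31.8 and 34.3 TPM and its partner nae1, from the list of other genes, at 31.9 and 36.8 TPM. The SUMO enzyme uba2 was at 15.4 and 18.6 TPM, and its partner sae1 at 7.58 and 7.55 TPM. Only uba7, which activates the interferon-induced modifier ISG15 in mammals, was below 1 TPM in both replicates, with 17 and 12 expected counts, and it was the only member of all 102 for which this held.

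**Figure D3:**
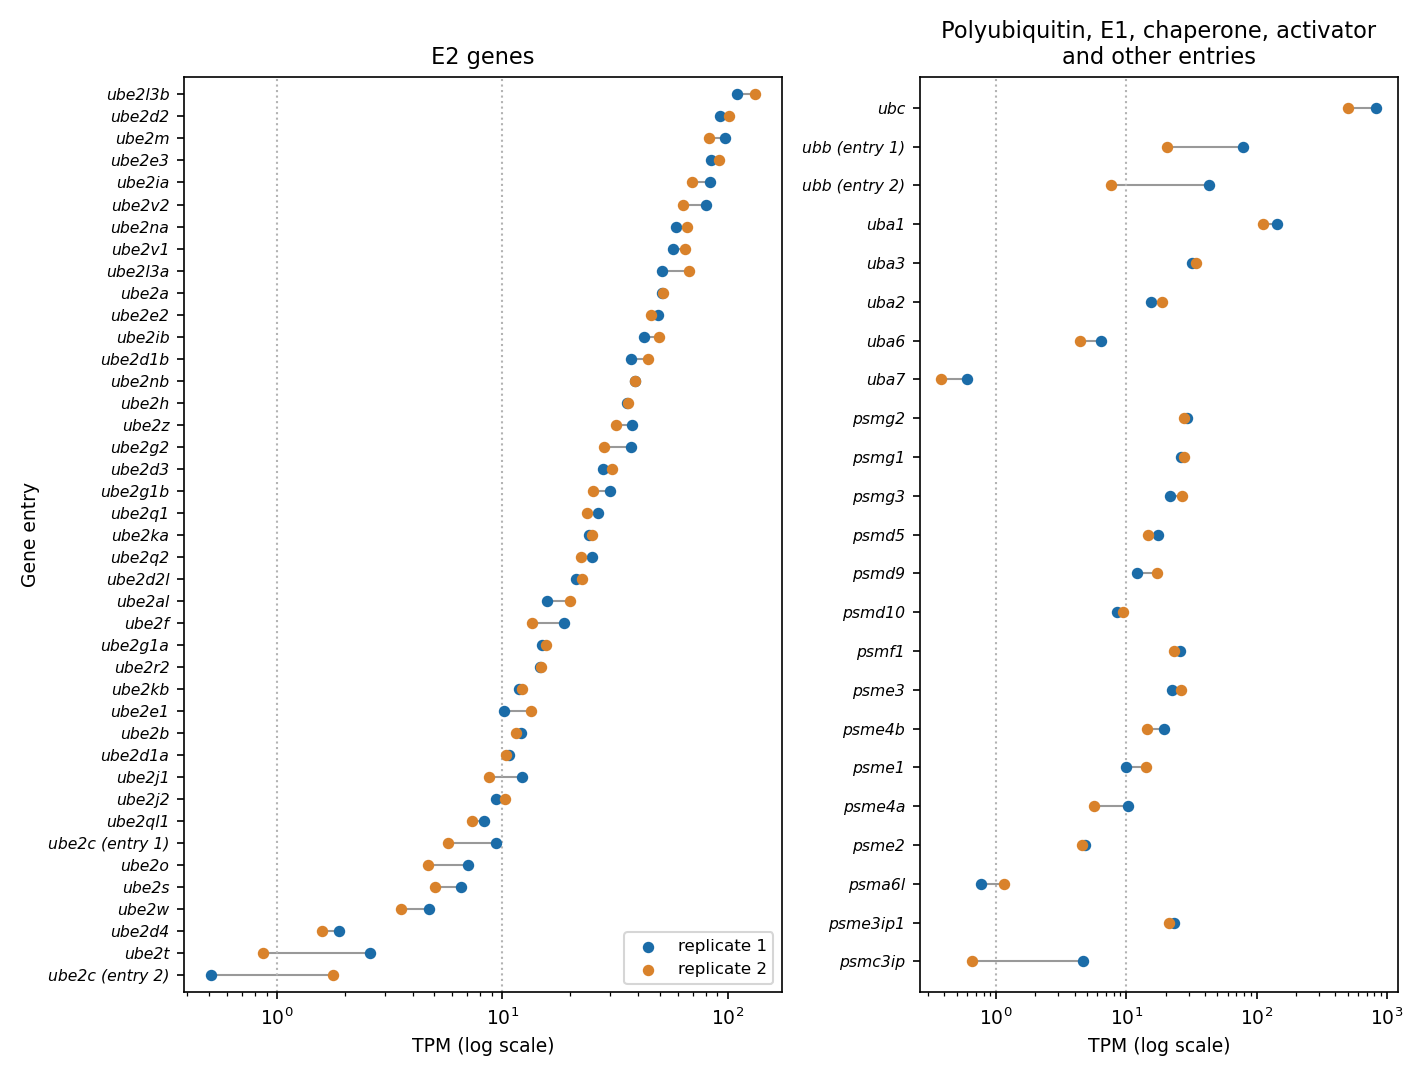
TPM on a log scale of the E2 entries (left) and of polyubiquitin, E1, chaperone, activator and other entries (right; not every member is shown) in replicate 1 and replicate 2 (points joined by a line), with dotted lines at 1 and 10 TPM. The E2 entries run from 110 and 132 TPM for ube2l3b to about 1 TPM, and ubc, at 828 and 505 TPM, stands far to the right of the other entries on its panel.

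E2 genes spanned 2 orders of magnitude around a broad middle. Of 41 entries, 39 were detected, 31 were at 10 or above in both replicates and ube2l3b alone was at 100 or above in both. Of all genes of the table, 66.1%, 31.9% and 3.78% reached these levels. The E2 entries summed to 1372 TPM in replicate 1 and 1377 TPM in replicate 2, or 9.63-fold and 12.3-fold the level of uba1. The 5 highest held 34.4 ± 0.34% of the summed TPM (SD, n = 2). In the order of the 41 entries, 29 of 40 neighbours overlapped between replicates, so ranks are given here only as a guide.

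The highest E2 in TPM was ube2l3b, a partner of the ligases that carry ubiquitin on their own cysteine, at 110 and 132 TPM. Its copy ube2l3a was at 51.3 and 67.2 TPM. The promiscuous UBE2D family summed to 192 and 211 TPM over 6 entries, led by ube2d2 at 92.8 and 101.6 TPM. Its lowest entry, ube2d4, was at 1.89 and 1.58 TPM. The related ube2e genes summed to 143 and 151 TPM, led by ube2e3 at 84.2 and 91.8 TPM. In TPM, these 3 families were the most abundant of 13 compared in both replicates, and each held at least 10.4% of the summed E2 level. The order differed in CPM, where ube2v2 and ube2v1 together exceeded the ube2e genes in both replicates. On that scale ube2v2 was at 112.1 and 97.3 CPM and ube2v1 at 40.4 and 49.8 CPM. The ube2e genes were at 81.0 and 98.3 CPM for ube2e3, 24.8 and 27.2 CPM for ube2e2 and 7.34 and 10.5 CPM for ube2e1.

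Of the E2 enzymes of NEDD8 and SUMO, ube2m and ube2ia were among the 5 highest entries in TPM and ube2f was below the E2 median of 24.6 TPM. In CPM neither ube2m nor ube2ia was among the 5 highest. The NEDD8 enzyme ube2m, which activates cullin ligases, was at 97.6 and 82.9 TPM, and the other NEDD8 enzyme, ube2f, was at 18.8 and 13.6 TPM. The SUMO enzyme was present as ube2ia, at 83.9 and 69.3 TPM, and ube2ib, at 42.4 and 49.8 TPM. The modifiers themselves were at like levels, with nedd8 at 82.0 ± 3.97 and sumo3a at 82.1 ± 8.79 TPM (SD, n = 2). Of 13 genes for ubiquitin-like modifiers and fusion proteins, 12 were detected, where 66.1% of all genes of the table were. The highest were rps27a, then faua, which encodes another ribosomal fusion protein, at 1634 ± 547 TPM, and then sumo3a. The gene sumo2a was listed at 0 in both replicates.

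The enzyme ube2n, which builds the ubiquitin chains of signalling and DNA repair, was present as ube2na at 58.8 and 65.8 TPM and ube2nb at 39.0 and 39.0 TPM. Its catalytically inactive partners summed to a similar level, with ube2v2 at 79.9 and 63.7 TPM and ube2v1 at 57.0 and 64.9 TPM. The pair thus summed to 97.8 and 104.8 TPM for ube2n and to 136.9 and 128.6 TPM for ube2v. The DNA damage enzymes ube2a and ube2b were at 51.2 and 51.8 TPM and at 12.1 and 11.5 TPM.

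Enzymes of degradation from the endoplasmic reticulum were moderate to low. The gene ube2g2 was at 37.2 and 28.4 TPM, while the membrane-anchored ube2j1 and ube2j2 were at 12.2 and 8.70 TPM and at 9.37 and 10.3 TPM. The segregase vcp, which pulls proteins out of that membrane, was higher, at 146 ± 2.50 TPM, and its cofactors ufd1l and nsfl1c were at 38.6 ± 1.43 and 31.5 ± 1.20 TPM. All 5 genes of the segregase list were at 10 or above in both replicates, where 31.9% of all genes of the table were. The cullin partner ube2r2 was at 14.7 and 14.9 TPM. Of 12 cullin ligase genes all were detected, where 66.1% of all genes of the table were. They were led by the adaptor skp1 at 466 ± 22.9, the RING subunit rbx1 at 199 ± 19.4 and cul4a at 131 ± 51.1 TPM. The list of E2 family genes without an ube2 symbol does not separate active enzymes from inactive relatives. Its genes were all detected, 8 of 8, led by aktip at 39.4 ± 2.78, tsg101a at 34.2 ± 5.71 and atg3 at 21.3 ± 1.00 TPM.

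The E2 genes of cell division were low in the order, as were others such as ube2d4, at 1.89 and 1.58 TPM, and ube2w. The partners of the anaphase-promoting complex, ube2c and ube2s, were at 9.90 and 7.51 TPM, summed over 2 entries, and at 6.54 and 5.02 TPM. The 2 ube2c entries rest on 19 and 14 and on 3 and 13 expected counts. The DNA repair enzyme ube2t was at 2.58 and 0.87 TPM, from 12 and 5 expected counts. Cycling cell markers were low in the same libraries, with top2a at 2.17 ± 0.057 and mki67 at 0.88 TPM in both replicates, and only pcna above 10, at 83.02 ± 15.7 TPM. In whole tissue, fewer cells of a type and less RNA per cell cannot be told apart. The ubiquitin E2 that carries charge from uba6 in mammals, ube2z, was at 37.8 and 31.9 TPM, above uba6 itself. The entry UBE2W of the reference table, named flj11011l by the authors, was at 6.56 and 5.51 TPM beside ube2w at 4.75 and 3.54 TPM.

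Pairs of duplicated genes were compared copy by copy. Pairs were taken from symbols ending in a and b with the higher copy at a mean of at least 10 TPM, and were called unequal where the same copy was higher by 4-fold in each replicate. This held for 0 of 11 pairs, where 45.2% of all 1399 such pairs of the table were called. At 2-fold, 2 pairs were called, where 66.8% of all pairs were. The pairs that differed were ube2d1, with ube2d1b at 37.2 and 44.4 TPM and ube2d1a at 10.7 and 10.4 TPM, or 3.46-fold and 4.26-fold, and ube2k, with ube2ka at 24.22 and 24.99 TPM and ube2kb at 11.9 and 12.2 TPM. Without the correction for length the order of the ube2k copies was turned, with ube2ka at 10.2 and 11.4 CPM and ube2kb at 18.7 and 23.6 CPM. That of ube2d1 was not, with ube2d1b at 22.8 and 29.2 CPM and ube2d1a at 5.04 and 5.28 CPM, over 4-fold in both replicates. Pairs were read from symbols, and among all genes such symbols do not always mark duplicates.

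In the particle, the copies psma6a and psma6b were at 42.9 and 39.0 TPM and at 34.5 and 39.1 TPM, and their ranges overlapped. The copies psmd11a, at 15.7 and 19.7 TPM, and psmd11b, at 13.04 and 17.63 TPM, overlapped as well. For psmc1, copy b held 61.0% and 65.2% of the sum in replicates 1 and 2, and for psmd4 copy b held 63.7% and 62.4%. For psme4, copy b held 65.3% and 71.8%. In TPM, the higher copy was the same in both replicates in every pair but psma6. Without the correction for length the order of the psmd11 copies was turned, with psmd11a at 21.5 and 31.3 CPM and psmd11b at 24.0 and 35.8 CPM. On that scale the psmc1 copies were close and changed order, with psmc1a at 44.7 and 41.1 CPM and psmc1b at 43.5 and 47.9 CPM.

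**Figure D4:**
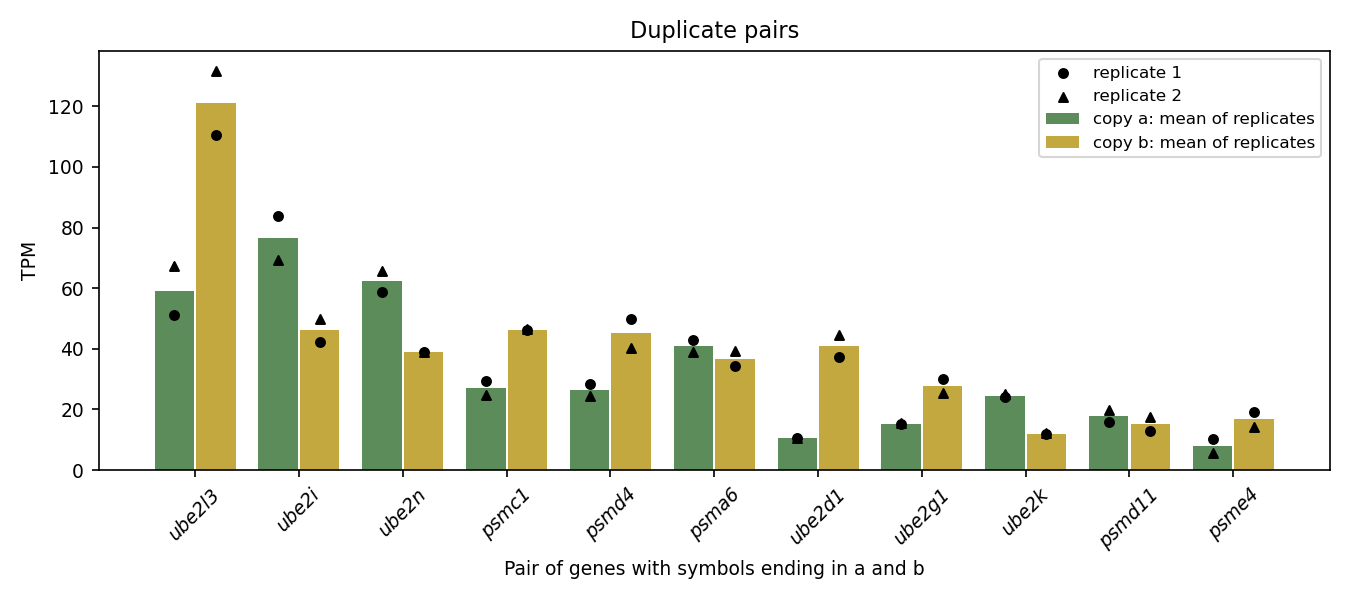
Mean TPM of both copies of 11 duplicate pairs (bars, copy a left and copy b right) with the value in replicate 1 (circles) and replicate 2 (triangles). No pair is 4-fold apart in both replicates, and ube2d1, at 10.6 against 40.8 TPM, is the least even.

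Between the replicates, the ubb entries differed over 2-fold and no subunit gene of core or cap did. The comparison used the log2 ratio of TPM + 1, replicate 2 over replicate 1, less the median of -0.25 over all genes whose mean was 1 TPM or more. Of 86 members with a mean of at least 10 TPM, 2 differed at least 2-fold, or 2.33%, where 5.05% of all 7492 such genes did. Both were higher in replicate 1, where 2.98% of all genes were, and none was higher in replicate 2, where 2.07% of all genes were. These were the entries of ubb, with log2 ratios of -1.64 and -2.08. Summed, ubb was 4.32-fold higher in replicate 1 in TPM, and ubc, at -0.46, was below the 2-fold mark.

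Most members had centred ratios slightly above 0. Among the 86 members, 74 had a centred ratio above 0, or 86.0%, where 57.0% of all genes with a mean of at least 10 TPM did. The centring subtracts a median of -0.25, so a ratio above 0 need not mean a higher TPM in replicate 2. Core entries summed to 1108 and 1205 TPM in replicates 1 and 2, and cap entries to 943 and 909 TPM. The median ratio of the 100 members with a mean of at least 1 TPM was 0.25, that of all such genes is 0 by the centring, and that of all genes with a mean of at least 10 TPM was 0.06. By role, over members with a mean of at least 1 TPM, the median was 0.37 for core subunits, 0.20 for cap subunits, 0.36 for assembly chaperones, 0.25 for E2, -0.02 for E1 and -1.64 for the polyubiquitin entries. All 15 core entries and 20 of 21 cap entries were above 0, the exception being psmd4b at -0.04. The largest ratio of the core was that of psmb5, at 0.71.

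The ratio moved with transcript length. Over the 100 members its Spearman correlation with effective length was -0.32, and over all 7492 genes with a mean of at least 10 TPM it was -0.17, both descriptions across genes of the same libraries. The 39 members under 1000 bases had a median ratio of 0.37, and all such genes had 0.17. The 31 members of 1000 to 1500 bases had a median of 0.20, and all such genes had 0.10. The 13 members of 1500 to 2000 bases had a median of 0.02, and all such genes had 0.09. The 17 members of 2000 bases or more had a median of 0.14, and all such genes had 0.00. The medians of the members thus did not fall steadily with length. The part of length in the ratios of the members was not tested.

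The libraries also differed in other tissue. Choroid plexus epithelium markers were present, 8 of 8 detected, with sums of 37877 TPM in replicate 1 and 40917 TPM in replicate 2. Most of either sum was rbp4, at 32798 and 35995 TPM. The other markers of this list did not all move the same way, with otx2b at 273 and 331 TPM and slc4a2b at 682 and 413 TPM. Pineal and photoreceptor markers, 7 of 8 detected in both, summed to 3050 and 41.2 TPM, although the pineal gland had been removed. Erythrocyte markers, 6 of 6 detected, summed to 1762 and 5919 TPM. Only 2 of the 6 differed at least 2-fold, hbba1 at 1322 and 4496 TPM and hbaa1 at 353 and 1319 TPM. Little difference was seen for hbba2, at 44.2 and 52.3 TPM, and hbaa2, at 28.6 and 29.6 TPM. Neuron markers, 2 of 7 detected, summed to 60.3 and 37.4 TPM, and macrophage markers, 5 of 5, to 270 and 345 TPM. The share of all genes of the table that were detected was 66.1%. Of the macrophage markers, cd74a was at 133 and 197 TPM, while csf1ra was at 8.99 and 9.29 TPM and spi1b at 3.34 and 3.07 TPM. Among the neuron markers, map2 was at 29.4 and 31.8 TPM. The others were all lower in replicate 2, such as snap25b at 15.9 and 3.84 TPM and syt1a at 8.74 and 0.46 TPM. No marker was at 0 in either replicate. Pineal markers were thus high in the library with high ubb, and their part in that difference was not tested.

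**Figure D5:**
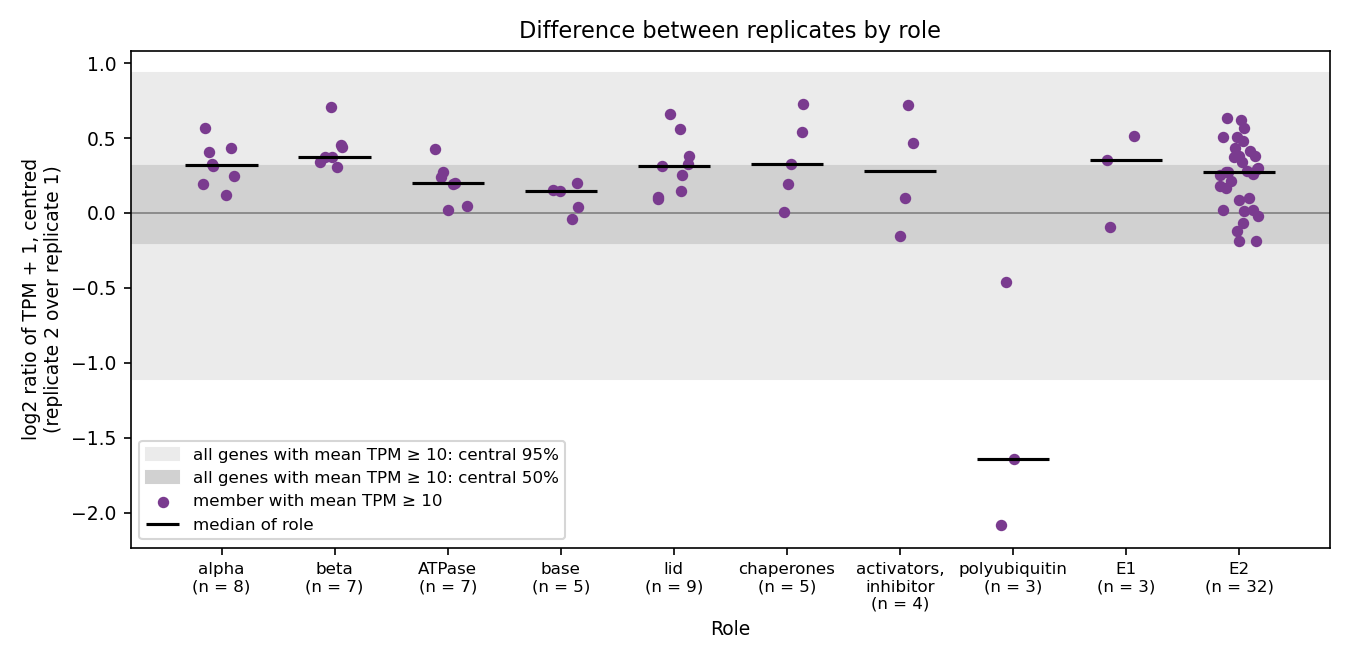
Centred log2 ratio of TPM + 1, replicate 2 over replicate 1, of each member with a mean of at least 10 TPM (points) by role, except psme3ip1, which has no such role, and members not reported here, with the median of the points of a role as a bar and the central 50% and 95% of all genes at that level as grey bands. The 2 ubb entries lie below the wider band and every other point lies inside it.

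Among regulators of proteasome genes, nfe2l1b was detected at 48.2 ± 5.28 TPM (SD, n = 2). In mammals its counterpart is the factor that raises proteasome transcription when degradation is impaired. Its copy nfe2l1a was at 0.62 ± 0.12 TPM. The subunits of the CCAAT-binding factor were led by nfyba at 75.7 ± 10.8 and nfyc at 31.4 ± 2.82 TPM. The enzymes that process the counterpart of nfe2l1b in mammals, ddi2 and ngly1, were at 13.96 ± 1.04 and 12.99 ± 1.97 TPM. Of 12 matched genes of this list 9 were detected, where 66.1% of all genes of the table were. At 10 or above in both replicates were 8, where 31.9% of all genes were.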

How the data were processed

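Members and lists were chosen with earlier results of these data known. The submitters' processing notes name the tools STAR and RSEM (1.3.3) and the build GRCz11, without a STAR version or an annotation. For each library the authors deposited RSEM expected counts and TPM per gene, per the file headers. The deposited FPKM were not used. The authors' table of the series holds the mean TPM of both libraries, to within 0.005, and was used for names. Expected counts summed to 11712489 and 13446356 in replicates 1 and 2, and the member with the fewest had 3. Counting error and replicate spread limit members of few counts. Values are given per replicate or as mean ± SD (n = 2).

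Here, ratios used a pseudocount of 1 (0.1 as an alternative), computed with Python 3.11.15, pandas 2.3.3 and scipy 1.17.1. TMM scaling used edgeR 4.0.16 on rounded counts. No p-value is given, since 1 group of 2 libraries allows no test of groups. Ratio and spread calculations were tested on simulated data. Other pathway genes were matched by symbol, and 4 symbols matched none and were left out. Named were all positions, pairs, the highest 3 and lowest 2 of other roles, members 2-fold apart or below 1 TPM, and the top 3 of each list. Other named genes were chosen after their values were seen. Lists and positions follow symbols. No sequences are shown. Some members counted in the totals are not reported here.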

Additional observations from a re-analysis of the deposited data

How the results depend on the processing

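No paired analysis was possible because there is 1 group. The numbers of members at 1, 10 and 100 TPM, the summed levels of core, cap, ubiquitin, E1 and E2 genes and the median ratio between replicates stayed within 1.5 times or within the spread between replicates under every alternative run. With CPM in place of TPM, the ATPase to core difference reversed to 0.12, and the non-ATPase cap to core difference moved to -0.038, beta to alpha to 0.19, the spread of the core to 0.40 and that of the non-ATPase cap to 0.67, since no length is then divided out. The 5 highest E2 genes in CPM held 33.3%, and of these only ube2l3b and ube2e3 were also among the 5 highest in TPM. With the highest copy of each position, the ATPase to core difference was -0.53, beta to alpha 0.97, and the spreads of core and non-ATPase cap 0.78 and 0.61. With annotated length the core spread was 0.64. Chosen after seeing the data, psma8 as alpha 4 gave 0.41 for beta to alpha and 0.71 for the core spread, PSMA2 added gave 0.33 and 0.60, and both gave 0.37 and 0.58. Without either replicate, beta to alpha was 0.47 to 0.52 and the core spread 0.73 to 0.74. At a mean of at least 1 TPM, 4 members were 2-fold apart in place of 2, adding psmc3ip and an entry of ube2c. At 2-fold, 2 pairs were unequal in place of 0 at 4-fold, and 1 was at 4-fold in CPM, ube2d1. Depth limits ube2c, ube2t, psma6l, psmc3ip and uba7.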
